A study of Rattus norvegicus with 13 samples.

Results

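The genes described here are the claudin, connexin and zonula occludens families of the rat, with occludin and 4 other proteins of the tight junction. They were taken from the day 3 tables by name: every row whose symbol starts with Cldn, Gja, Gjb, Gjc, Gjd or Tjp followed by a digit, together with Ocln, F11r, Cgn, Marveld2 and Marveld3. This gave 53 of 28357 named rows, comprising 27 claudins, 18 connexins, 3 Tjp genes and the 5 others. RNA had been sequenced from dissected peripheral cornea and limboscleral tissue, the rim where cornea meets sclera, from rats modelling limbal stem cell deficiency, in which the cornea loses the stem cells of its epithelium and vessels grow in. The rats were wild-type Lewis males aged 2 months. The treated group received spironolactone, an antagonist of the mineralocorticoid receptor, by daily subcutaneous injection at 25 mg/kg/day. The control group received the vehicle, 90% olive oil with 10% DMSO. Of the 13 libraries of the series, 3 spironolactone and 3 vehicle libraries were of day 3 and are used here. How the deficiency was produced is not stated in the labels. The labels do not say whether each library is a separate animal, so p-values measure only the spread between these libraries, which may be technical.

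Tight junctions seal the space between neighbouring epithelial or endothelial cells. Claudins form the strands and set whether the seal is a barrier or a channel for ions and water, while occludin and its relatives lie in the same strands and the zonula occludens proteins tie them to the actin cytoskeleton. Gap junctions are plaques of channels built from connexins, through which adjoining cells exchange ions and small molecules. The barrier of the corneal surface lies in the tight junctions of its superficial epithelial cells, the connexin Gja1 connexin is abundant in epithelium and stroma, and Cldn5 is the claudin best known from blood vessel endothelium.

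Promoters of the members were read to show the sequence context of genes with higher values and of the endothelial claudin they are set against. RefSeq sequences of the GRCr8 assembly, 300 bases each from 250 bases before the start site to 50 after it, were found for 39 of the 53 members, with 40 promoters because Gjb6 has a pair. The first 3 below hold the motif marked there and belong to members with higher values under spironolactone, a claudin, a connexin and a scaffold gene. Cldn1 is an epithelial claudin that also had higher values but lacks the motif, and Cldn5 is the endothelial one. For Cldn4 and Marveld3, which had higher values too, no promoter was found. Capitals mark CAGGTG or its reverse complement CACCTG, the E-box that Snail and Zeb repressors are known to bind in epithelial genes.
Cldn7: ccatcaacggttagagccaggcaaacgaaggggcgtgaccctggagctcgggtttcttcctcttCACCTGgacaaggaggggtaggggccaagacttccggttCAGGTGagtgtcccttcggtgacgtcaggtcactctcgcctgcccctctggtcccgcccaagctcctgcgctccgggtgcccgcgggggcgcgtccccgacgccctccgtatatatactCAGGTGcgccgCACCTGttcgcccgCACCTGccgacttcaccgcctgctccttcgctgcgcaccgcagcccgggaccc
Gjb2: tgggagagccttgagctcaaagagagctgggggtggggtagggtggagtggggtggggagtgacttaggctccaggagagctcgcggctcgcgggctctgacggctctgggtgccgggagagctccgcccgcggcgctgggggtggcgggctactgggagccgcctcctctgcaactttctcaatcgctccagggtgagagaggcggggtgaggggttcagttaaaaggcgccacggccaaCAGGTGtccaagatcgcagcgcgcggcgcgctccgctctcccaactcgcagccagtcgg
Tjp3: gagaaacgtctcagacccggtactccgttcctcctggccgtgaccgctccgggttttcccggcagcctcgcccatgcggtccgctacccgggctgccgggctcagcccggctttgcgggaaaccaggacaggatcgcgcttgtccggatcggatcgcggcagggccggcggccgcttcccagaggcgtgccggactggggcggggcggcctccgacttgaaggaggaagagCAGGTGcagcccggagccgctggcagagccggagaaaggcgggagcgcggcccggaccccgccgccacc
Cldn1: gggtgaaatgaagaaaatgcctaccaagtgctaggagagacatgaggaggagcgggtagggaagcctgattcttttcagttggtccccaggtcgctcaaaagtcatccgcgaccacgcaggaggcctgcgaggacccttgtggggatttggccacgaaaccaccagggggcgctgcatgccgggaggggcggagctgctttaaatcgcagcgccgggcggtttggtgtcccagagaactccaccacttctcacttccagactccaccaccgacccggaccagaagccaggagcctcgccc
Cldn5: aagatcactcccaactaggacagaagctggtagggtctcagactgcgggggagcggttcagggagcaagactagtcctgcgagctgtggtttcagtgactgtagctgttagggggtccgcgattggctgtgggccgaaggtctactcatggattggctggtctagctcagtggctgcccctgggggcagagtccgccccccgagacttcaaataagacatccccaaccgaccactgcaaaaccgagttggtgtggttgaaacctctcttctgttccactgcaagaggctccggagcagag
The Cldn7 sequence lies at chr10:55188420-55188719 on the plus strand and holds 5 matches, whose first bases lie at -186, -147, -28, -17 and -3 from the start site; only 4 of 33469 rat promoters (0.012%) hold 5 or more. The Gjb2 sequence (chr15:35381904-35382203, minus strand) and the Tjp3 sequence (chr7:9084174-9084473, plus strand) hold 1 match each, at -9 and -19. No match lies in the Cldn1 sequence (chr11:87926126-87926425, plus strand) or in the Cldn5 sequence (chr11:95718549-95718848, minus strand). Over all members, 16 of 40 promoters (40%) held the motif, against 18.84% of all 33469 promoters.

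This E-box was found in promoters of members with higher values under spironolactone, Cldn7, Gjb2, Tjp3, Ocln and F11r. It was also found in those of Cldn6, Cldn34b, Cldn34d, Cldn34e, Gja3 and Gja10, which were under 1 TPM (the deposited level per transcript length and library total) on average in this tissue, and in that of Gjd2, which had lower values. Promoters of Cldn3, Cldn11 and Gjb6 (a single one of its pair) held it as well, and these genes had positive log2 fold changes with groups that overlapped. The motif was not found in the promoters of Cldn1, Cgn and Marveld2, nor in that of Cldn8, which had a positive log2 fold change with overlap. Of 5 other motifs read on both strands, AGAACA, a single arm of the steroid receptor element, lay in 7 member promoters (17.5%) against 20.68% of all. The whole palindromic steroid receptor element, which holds that arm on each strand with 3 bases between, lay in 0 of 40 and in 0.01494% of all. TGANTCA, the AP-1 motif, lay in 5 member promoters (12.5%) against 7.329%. CCGGAA, an ETS motif, lay in 2 (5%) against 14.95%, and AACNNGTT, bound by Grainyhead-like factors, lay in 2 (5%) against 4.228%. These are matches of letters in a window of 300 bases and show no binding.

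Each library held 18.1 to 25.3 M estimated counts on named genes. The members took 0.328% to 0.336% of them with spironolactone and 0.303% to 0.315% with vehicle. Markers of several tissues were present, so the libraries are of mixed tissue. Summed over 12 epithelial markers, levels ran from 14478 to 17215 TPM with spironolactone and from 8516 to 11856 with vehicle, nearly all of it keratin, while the corneal keratin Krt12 stayed at 7.23 to 10.9 TPM. The sum over 11 blood endothelial markers was 242 to 292 TPM against 310.2 to 425. Skeletal muscle markers were lower with spironolactone (166 to 280.0 against 550.2 to 1188 TPM). Rod photoreceptor markers summed to 4297 to 4812 TPM with vehicle and to 2750.3, 3540.2 and 195 TPM with spironolactone, so spironolactone replicate 3 held little retina. Lens markers summed to 667 TPM in vehicle replicate 3 and to at most 55.6 TPM in the other 5 libraries. None of the listed markers that the tables hold was at 0 in all 6 libraries. In bulk tissue, fewer cells of a type and less RNA per cell cannot be told apart, and the part of these shifts in the results below was not tested unless a value is given.

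Epithelial claudins, beta connexins and most scaffold genes had higher values with spironolactone at day 3, by up to 1.61-fold (Marveld3), while Cldn2, Gjc1 and Gja5 had lower ones. The abundant connexin Gja1, the scaffold Tjp1 and the endothelial claudin Cldn5 had fold changes near 1. Of the 53 members, 36 passed the expression filter and were tested. With spironolactone 22 had higher fitted values and 14 lower, and their median log2 fold change was 0.25, against -0.01 over the 14762 genes tested. No member passed an adjusted p of 0.05 in edgeR's quasi-likelihood test, where 0.00% of all genes passed, and the lowest adjusted p was 0.0649. At an unadjusted p under 0.05 there were 13 higher members, where 12.2% of all genes were higher, and 3 lower members, Cldn2, Gja5 and Gjc1, where 10.4% were lower. Together these were 16 of 36, with 22.6% of all genes past the same rule in either direction. In normalised counts (TMM-scaled CPM, which corrects for library size and not for gene length), the 3 spironolactone values lay above all vehicle values in 12 members and below them in 4, where 16% and 16.1% of all genes did so. DESeq2 called 13 members at an adjusted p under 0.05, with 9.11% of all genes called. Of these 11 were higher, among them Cgn, Cldn1, Cldn4, Cldn7, F11r, Gjb2, Marveld3, Ocln and Tjp3, with 5.77% of all genes called higher, and Cldn2 and Gja5 were lower, with 3.34% called lower. The words higher and lower below give the direction of values and not a call at the adjusted threshold.

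**Figure D1:**
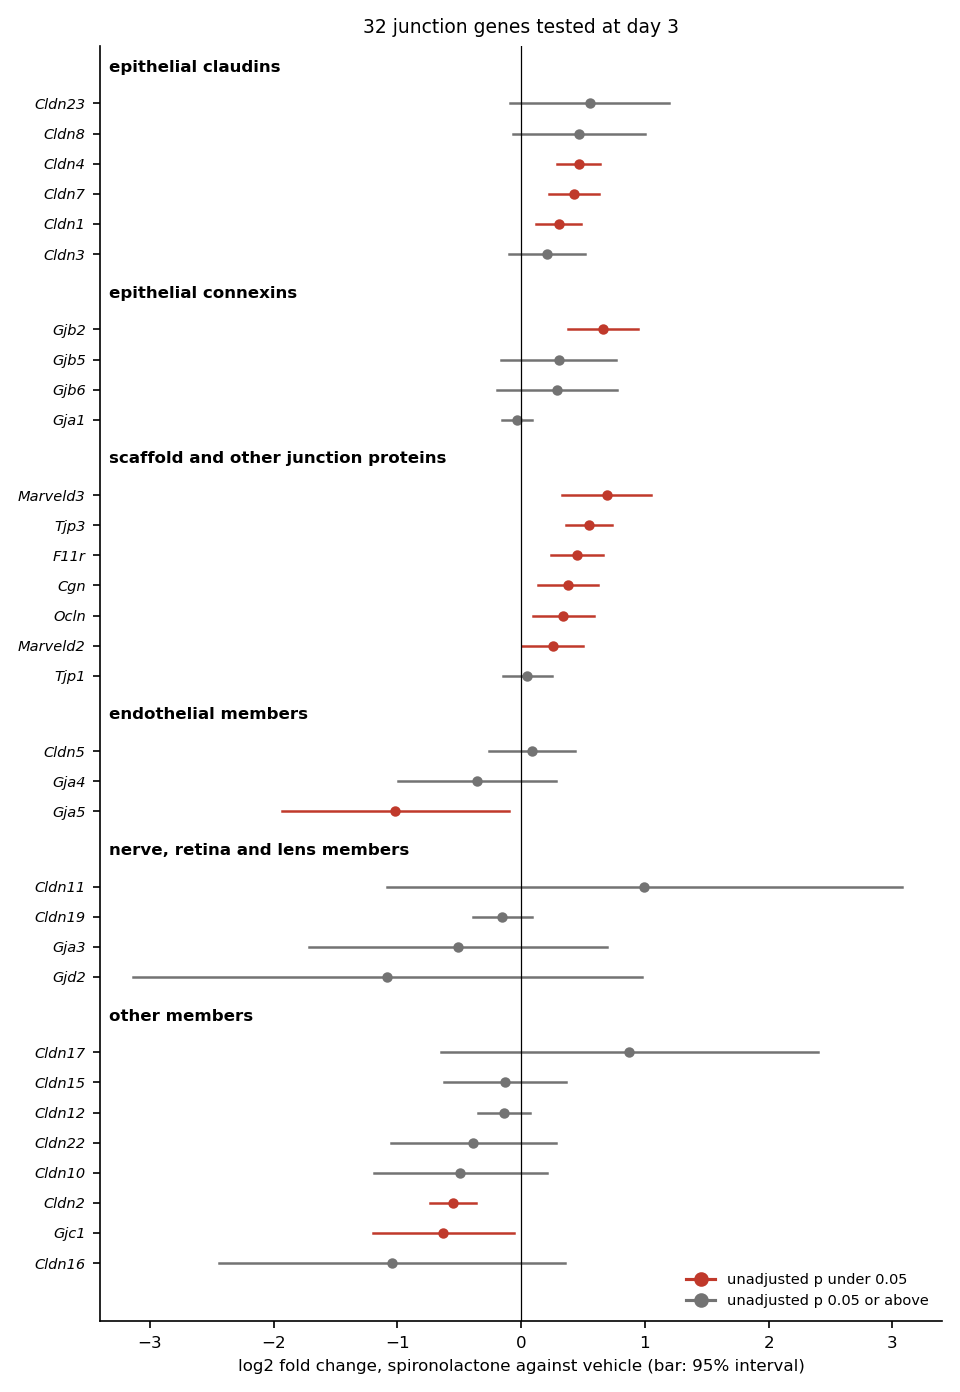
Log2 fold change (spironolactone against vehicle, horizontal axis) of 32 junction genes tested at day 3, grouped by role, with 95% intervals as bars and an unadjusted p under 0.05 in red. All 6 epithelial claudins and all 7 scaffold genes shown lie to the right of 0, while Cldn5, Gja1 and Tjp1 lie next to it and Cldn2, Gjc1 and Gja5 to the left.

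The epithelial claudins were higher with spironolactone in all 6 genes of the list, by 1.16-fold (Cldn3) to 1.47-fold (Cldn23), with a median log2 fold change of 0.45. At an unadjusted p under 0.05 there were 3, namely Cldn4, Cldn7 and Cldn1, and these are the 3 whose groups did not overlap. Of all genes tested, 12.2% were higher by that p and 16% were higher without overlap. Among the remaining 3, the overlap of Cldn23 and Cldn8 was with vehicle replicate 3, while for Cldn3 spironolactone replicate 2 lay, in TPM, below every vehicle library.

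Cldn4, a barrier-forming claudin of stratified and simple epithelia, was the most abundant claudin, at 158, 145 and 151 TPM in spironolactone replicates 1, 2 and 3 and at 106, 123 and 114 TPM in vehicle replicates 1, 2 and 3. Every spironolactone library was above every vehicle library. As normalised counts, the means were 168 ± 8.05 CPM against 121 ± 9.60 CPM (SD, n = 3 each). This gave a log2 fold change of 0.46 (SE 0.072, 95% interval 0.29 to 0.64), with an adjusted p of 0.0649. Cldn7, which lies along the lateral membrane as well as in the tight junction, had 119.8, 111 and 105 TPM with spironolactone and 78.7, 88.3 and 92.8 TPM with vehicle, again without overlap. Its log2 fold change was 0.43 (SE 0.084, adjusted p = 0.0743). Cldn1, the claudin needed for the barrier of the skin, had 48.9, 51.6 and 49.2 TPM against 41.5, 38.6 and 46.1 TPM. The gap between its closest libraries was smaller, and its log2 fold change was 0.30 (SE 0.076, adjusted p = 0.0907).

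Cldn23 had 35.98, 31.1 and 22.8 TPM with spironolactone and 15.3, 20.4 and 27.9 TPM with vehicle. Its replicates 3 changed places with the rest, the spironolactone one being the lowest of its group and the vehicle one the highest of its own. The log2 fold change was 0.55 with an interval from -0.09 up to 1.196 (adjusted p = 0.271). Without both replicates 3 it was 0.98 (edgeR adjusted p = 0.0245), and with 1 library left out at a time it ran from 0.36 to 0.83. Cldn8, which limits cation passage in tight epithelia, was low, at 3.25, 3.19 and 2.66 TPM against 1.88, 1.95 and 3.00 TPM. Vehicle replicate 3 again lay among the spironolactone libraries (log2 fold change 0.47, adjusted p = 0.268), and without both replicates 3 the value was 0.82 (adjusted p = 0.0444). With 1 library left out at a time, the Cldn8 value ran from 0.35 to 0.75. Cldn3, another barrier claudin, had 20.8, 15.3 and 19.1 TPM against 15.5, 17 and 17.2 TPM. Its groups overlapped, with a log2 fold change of 0.21 and an interval of -0.10 to 0.52 (adjusted p = 0.373).

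**Figure D2:**
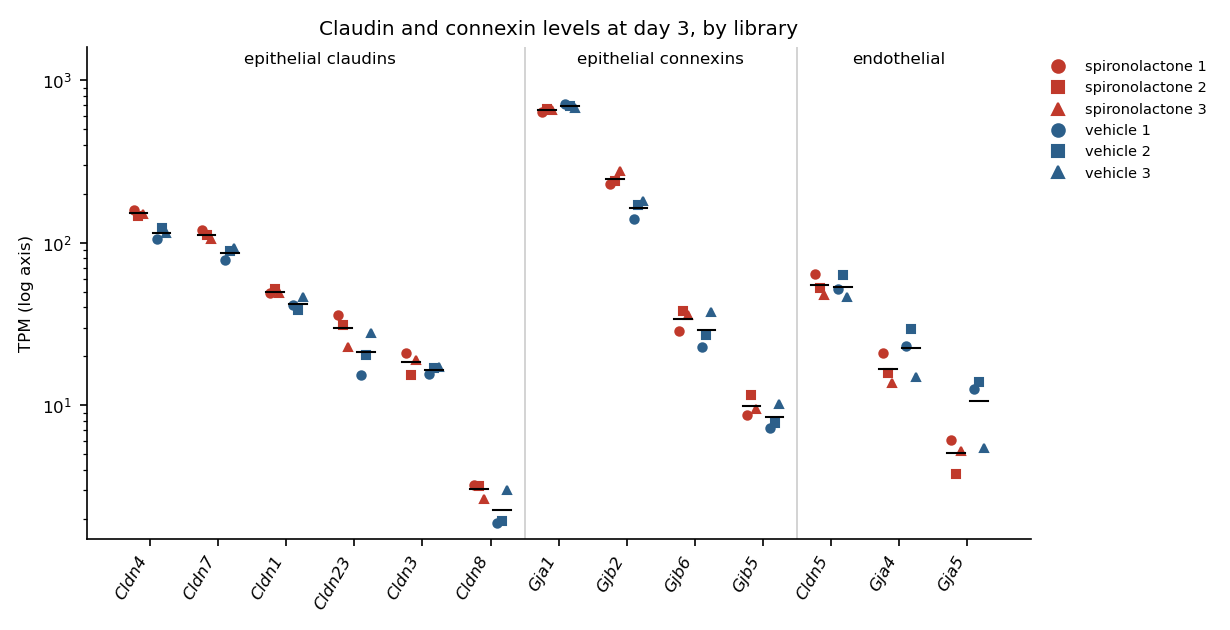
Deposited TPM (log axis) of epithelial claudins, epithelial connexins and endothelial members in each of the 6 day 3 libraries, with spironolactone in red, vehicle in blue and group means as black lines. The groups are apart for Cldn4, Cldn7, Cldn1 and Gjb2, with spironolactone higher, and for Gja1, with spironolactone lower. Vehicle replicate 3 (blue triangle) lies with the spironolactone libraries for Cldn23, Cldn8, Gjb6 and Gja5.

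Among the epithelial connexins the beta family was higher and the alpha member was not. Of the 6 genes of the list, 5 had higher values, with a median log2 fold change of 0.40 over the list. An unadjusted p under 0.05 and groups that did not overlap were found for 3, Gjb2 among them. Over all genes tested, 12.2% were higher by that p and 16% were higher without overlap. Gjb2, the connexin whose loss causes the commonest inherited deafness, and which stratified epithelia make during wound repair, had 228, 241 and 275 TPM with spironolactone and 139.8, 170.3 and 180.3 TPM with vehicle. Its lowest spironolactone library exceeded its highest vehicle library by more than any 2 libraries of vehicle differed in their TPM. The log2 fold change was 0.66 (SE 0.12, 95% interval 0.38 to 0.94), with an adjusted p of 0.0659.

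Gjb6 and Gjb5 overlapped between groups. Gjb6, which lies next to Gjb2 on chromosome 15 and pairs with it in channels, had 28.8, 37.8 and 35.7 TPM with spironolactone and 22.9, 26.9 and 37.4 TPM with vehicle. Gjb5 had 8.76, 11.49 and 9.51 TPM against 7.24, 7.76 and 10.2 TPM. In both genes the overlap was between vehicle replicate 3 and the spironolactone libraries, and the log2 fold changes were 0.29 (adjusted p = 0.42) and 0.30 (adjusted p = 0.385).

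Gja1 was the most abundant of all 53 members and is made by epithelial, stromal and vessel cells alike. It had 637, 666 and 651 TPM with spironolactone and 715, 698 and 672 TPM with vehicle. In TPM all 3 spironolactone libraries were below all vehicle libraries, whereas in normalised counts, at 1314 ± 21.6 against 1346 ± 27.2 CPM (SD, n = 3 each), the groups overlapped. The log2 fold change of -0.03 had a 95% interval of -0.15 to 0.08 (adjusted p = 0.7). The intervals of Gjb5 (-0.16 to 0.77) and Gjb6 (-0.20 to 0.78) cover the Gja1 value, and that of Gjb2 (0.38 to 0.94) does not. The difference between the genes was not tested.

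The scaffold and membrane proteins that build the junction with the claudins were higher in 8 of 8 genes, with a median log2 fold change of 0.36. An unadjusted p under 0.05 was reached by 7 of them, all but Tjp1, and the groups did not overlap in normalised counts for 6. In TPM, Marveld2 overlapped as well. Among all genes tested, 12.2% were higher at an unadjusted p under 0.05, and 16% were higher without overlap in normalised counts.

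The zonula occludens genes differed among themselves. Tjp3, found mainly in epithelia, had 44.0, 41.5 and 39.2 TPM with spironolactone and 27.5, 29.9 and 31.9 TPM with vehicle. All 3 spironolactone values lay above the vehicle range, and the fitted log2 difference of the groups was 0.55 (SE 0.079, 95% interval 0.36 to 0.74, adjusted p = 0.0649). Tjp1, present in epithelium, endothelium and fibroblasts, had 104.9, 97.6 and 87.0 TPM against 92.0, 102.9 and 95.7 TPM. Its groups overlapped fully. Its log2 fold change was 0.05 with an interval of -0.14 to 0.25 (adjusted p = 0.73), and the sign turned to -0.01 when TPM values were tested instead of counts.

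Of the other junction proteins, Marveld3, a relative of occludin, had 15.1, 13.4 and 13.2 TPM with spironolactone and 8.61, 7.59 and 10.7 TPM with vehicle. This was the largest fold change of the 8 genes, with a log2 value of 0.69 (SE 0.15, adjusted p = 0.0765) and no overlap. F11r, the junctional adhesion molecule that helps to start junction assembly, had 116.7, 112 and 95.3 TPM against 76.7, 83.1 and 87.1 TPM (log2 fold change 0.45, adjusted p = 0.0745). Cgn, cingulin, which links the junction to actomyosin, had 14.6, 16.9 and 15.4 TPM against 10.97, 12.6 and 13.9 TPM (log2 fold change 0.38, adjusted p = 0.105). For both genes every spironolactone library was above every vehicle library. Ocln, occludin, had 45.6, 39.0 and 37.4 TPM against 30.4, 33.1 and 36.8 TPM, with groups that nearly touched and a log2 difference of 0.34 (adjusted p = 0.125). Marveld2, tricellulin, which seals the points where several cells meet, had 11.01, 12.8 and 10.9 TPM against 9.22, 9.50 and 10.9 TPM. Its vehicle replicate 3 lay level with the lowest spironolactone library, and the log2 fold change was 0.25 (adjusted p = 0.213).

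Beside these groups, the log2 fold changes of the 12 epithelial markers were positive in 12 of 12, around a median of 0.56, and 9 had an unadjusted p under 0.05, where 12.2% of all genes did in that direction. Each epithelial claudin and connexin was therefore set against those markers. Per TPM of the marker sum, all 12 were lower with spironolactone, with a median difference of -0.33 on the log2 scale, and in 6, among them Cldn1, Cldn3, Gja1, Gjb5 and Gjb6, the groups did not overlap. Most of that sum is keratin. Without the keratins 11 of 12 were lower and 5 did not overlap (median -0.21).

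Against Cdh1, E-cadherin, the adhesion molecule of epithelial cells, the differences were smaller. Cdh1 had 147, 143 and 154 TPM with spironolactone and 99.3, 102.4 and 120.4 TPM with vehicle. The log2 ratio to Cdh1 was lower in 9 of the 12 genes and higher in 3, with a median difference of -0.08. For Cldn4 the ratio was 0.10, 0.03 and -0.03 with spironolactone and 0.09, 0.26 and -0.07 with vehicle, and for Gjb2 it was 0.63, 0.76 and 0.84 against 0.49, 0.73 and 0.58. Both overlapped. Cldn1 (difference -0.22), Cldn3 (-0.33) and Gja1 (-0.56) were lower without overlap. Exact two-sided permutation tests gave p = 0.1 for each of these 3, the smallest that 3 against 3 libraries allow, and 0.375 after Benjamini-Hochberg adjustment over 15 ratios. No epithelial member was higher per unit of Cdh1 without overlap.

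**Figure D3:**
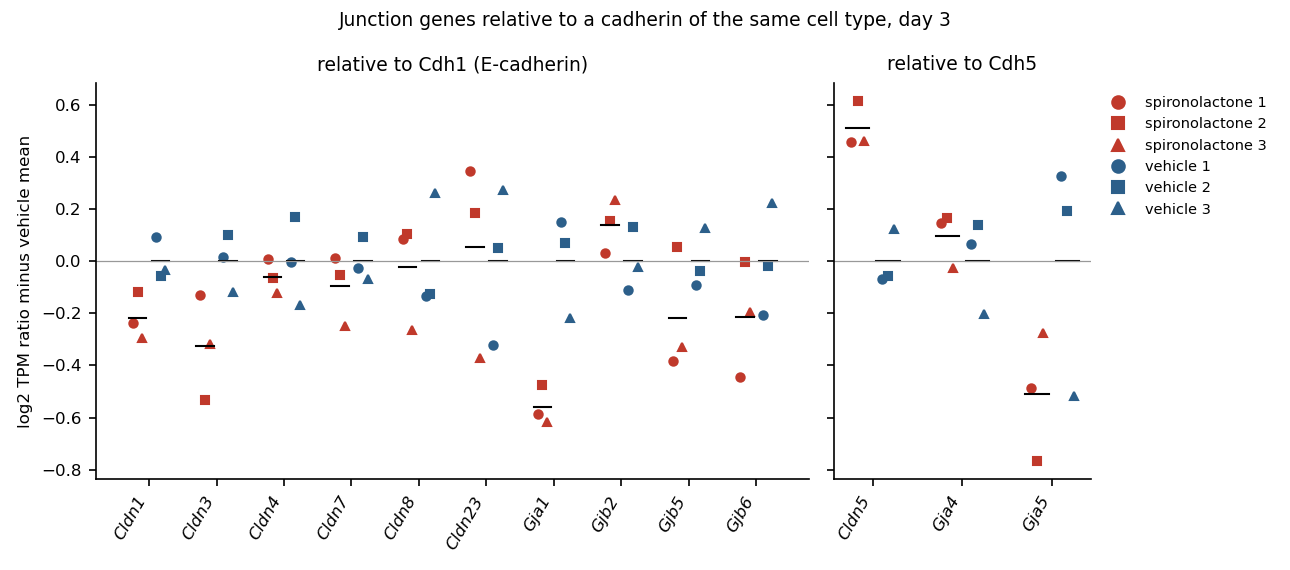
Log2 ratio of each gene's TPM to Cdh1 (10 epithelial members, left) or Cdh5 (3 endothelial members, right), with the vehicle mean set to 0, for each day 3 library; black lines are group means. Gja1, Cldn3 and Cldn1 lie below the vehicle libraries and Cldn5 lies above them, while the ratios of Cldn4, Cldn7 and Gjb2 overlap.

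Of the 3 endothelial members 1 had a positive and 2 had negative log2 fold changes, and the groups overlapped in each. Cldn5 had 64.0, 52.9 and 47.4 TPM with spironolactone and 51.9, 63.0 and 46.3 TPM with vehicle. The groups overlapped over nearly their whole range, with a log2 fold change of 0.09 (SE 0.14) and a 95% interval of -0.26 to 0.43 (adjusted p = 0.738). Without spironolactone replicate 1 the value was -0.04. Gja4, a connexin of vascular endothelium, had 20.9, 15.7 and 13.7 TPM against 23.1, 29.2 and 15.0 TPM, with overlap and a log2 difference of -0.36 (adjusted p = 0.445). Gja5, which marks arterial endothelium, had 6.14, 3.75 and 5.25 TPM against 12.6, 13.8 and 5.48 TPM. Vehicle replicates 1 and 2 lay far above the spironolactone libraries and vehicle replicate 3 among them. Its log2 fold change was -1.02 (SE 0.38, 95% interval -1.93 to -0.10, adjusted p = 0.19), and without vehicle replicate 3 it was -1.31 (edgeR adjusted p = 0.0311). Over the fits with 1 library left out it ran from -1.31 to -0.77.

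Setting the epithelial genes against Cldn5 gives a ratio that is free of the scaling of the libraries. The log2 ratio was higher with spironolactone in 11 of 12 epithelial claudins and connexins, all but Gja1, with a median difference of 0.36. The groups were apart in 1 of the 12, and the lowest p over the 12 ratios was 0.48 after Benjamini-Hochberg adjustment of exact two-sided permutation tests. For Gjb2 the ratio was 1.84, 2.19 and 2.54 against 1.43, 1.43 and 1.96, a difference of 0.58 (exact permutation p = 0.2). For Cldn4 it was 1.30, 1.46 and 1.67 against 1.03, 0.96 and 1.30 (difference 0.38, exact permutation p = 0.2). In each of these pairs the overlap was between vehicle replicate 3 and spironolactone replicate 1. The spread of Cldn5 enters every ratio, so the 12 are not independent.

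Cldn5 was also set against the blood endothelial markers. All 11 blood endothelial markers had negative log2 fold changes, from -0.70 to -0.18 with a median of -0.42, and 4 had an unadjusted p under 0.05, where 10.4% of all genes were lower by that rule. Per TPM of their sum, the log2 value of Cldn5 was -2.26 ± 0.082 (SD, n = 3) with spironolactone and -2.78 ± 0.049 (SD, n = 3) with vehicle. All 3 spironolactone libraries were above all 3 vehicle libraries, a difference of 0.52 (exact two-sided permutation p = 0.1, adjusted p = 0.214 over 15 ratios). The difference was 0.50 with the geometric mean of the markers. Against Cdh5, VE-cadherin, the ratio was 0.86, 1.02 and 0.86 with spironolactone and 0.34, 0.35 and 0.53 with vehicle, a difference of 0.51. Gja4 differed by 0.10 and Gja5 by -0.50 relative to the marker sum, both with overlap.

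Cldn2 was the claudin with the clearest lower values. It forms channels for cations and water and so makes a junction leakier. It had 13.6, 14.9 and 12.4 TPM with spironolactone and 21.7, 20.9 and 19.6 TPM with vehicle, and the groups did not overlap. The log2 fold change was -0.55 (SE 0.079, 95% interval -0.73 to -0.36, adjusted p = 0.0649), and in DESeq2 the adjusted p was 2.1e-05. The sum of the pigment epithelium markers was 219 to 291 TPM against 330.4 to 356 TPM, and all 6 had negative log2 fold changes. Rgr, Lrat and Ttr had an unadjusted p under 0.05, where 10.4% of all genes were lower by that rule. Rlbp1 (log2 fold change -0.16) and Best1 (-0.23) overlapped between groups. The part of pigment epithelium cells in the Cldn2 result was not tested. Rpe65, the defining enzyme of that epithelium, had a log2 fold change of -0.03.

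Of the 8 tested members outside the role lists, which are the connexin Gjc1 and claudins with Cldn2 among them, 7 were negative. Their median log2 fold change was -0.44. Over all 14762 genes tested, 7623 were negative. Only for Cldn2 and Gjc1 did the interval not span 0. Cldn10, which forms ion channels in transporting epithelia, had 9.50, 11.7 and 12 TPM with spironolactone and 20.6, 18.8 and 9.43 TPM with vehicle. Vehicle replicate 3 was the lowest of all 6 libraries, the log2 fold change was -0.49 (adjusted p = 0.352), and without that library it was -0.75 (adjusted p = 0.0371). Over the fits with 1 library left out, the Cldn10 value ran from -0.75 to -0.28. Cldn12 had 22.1, 21.6 and 17.9 TPM against 24.9, 24.0 and 21.8 TPM, with overlap and a log2 value of -0.14 (adjusted p = 0.373). Cldn22 ran from 0.89 to 1.98 TPM over the libraries, and its log2 value was -0.39 (adjusted p = 0.435). Cldn15, at 0.90 to 1.14 TPM outside vehicle replicate 2, where it had 1.2, gave -0.13 (adjusted p = 0.744). None of these 3 was called in any of the settings tried.

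Gjc1, a connexin of vascular smooth muscle and of neurons, had 21.1, 15.4 and 14.7 TPM with spironolactone and 30.3, 33.5 and 19.1 TPM with vehicle. Spironolactone replicate 1 lay above vehicle replicate 3, so the groups overlapped, and the log2 fold change was -0.63 (SE 0.24, adjusted p = 0.189). In its order of libraries it was like Gja5, with vehicle replicates 1 and 2 high and vehicle replicate 3 low.

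**Figure D4:**
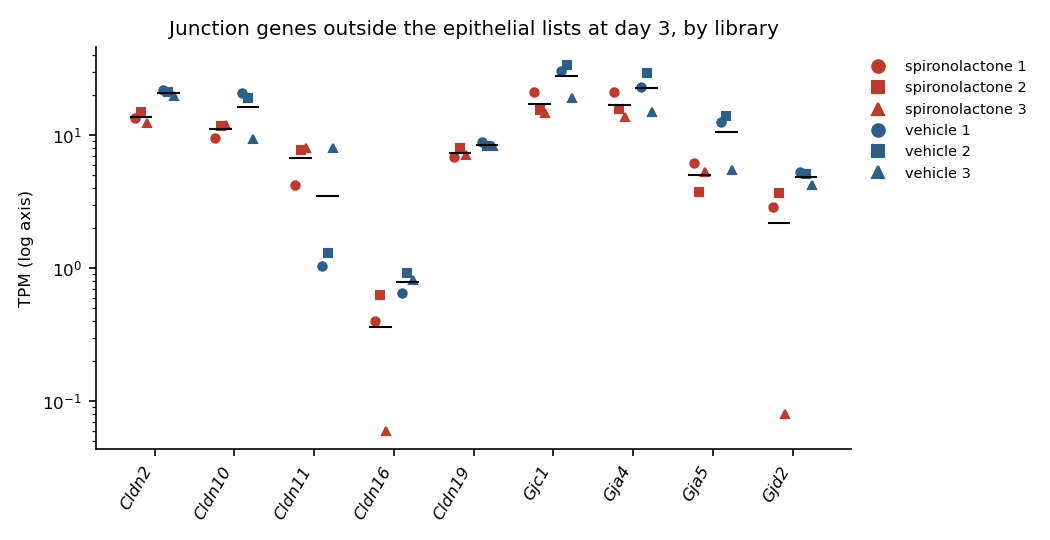
Deposited TPM (log axis) of 9 claudins and connexins outside the epithelial lists in each day 3 library, with spironolactone in red, vehicle in blue and group means as black lines. Cldn2 is lower in all 3 spironolactone libraries, vehicle replicate 3 (blue triangle) leaves its group for Cldn10, Cldn11, Gjc1 and Gja5, and spironolactone replicate 3 (red triangle) is near 0 for Gjd2 and Cldn16.

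Among members known from nerve, retina and lens, the values of Cldn11, Gjd2 and Gja3 turned on single libraries. Cldn11, the claudin of myelin sheaths and of some epithelia, had 4.22, 7.79 and 8.06 TPM with spironolactone and 1.03, 1.31 and 8.07 TPM with vehicle. Vehicle replicate 3 matched the spironolactone libraries, so the log2 fold change of 1.00 had an interval of -1.08 to 3.08 (adjusted p = 0.501), and without that library it was 2.60 (adjusted p = 0.0205). Over the fits with 1 library left out, the Cldn11 value ran from 0.56 to 2.60. The summed myelin markers were 451 to 554 TPM with spironolactone and 294, 281 and 444 TPM with vehicle. Most of that sum was Mal, which is also an epithelial gene, at 340 to 408 TPM against 177, 177 and 305 TPM.

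Gjd2, the connexin of electrical synapses, had 2.88, 3.65 and 0.08 TPM with spironolactone and 5.28, 5.11 and 4.25 TPM with vehicle. The library near 0 was the one with little retina, and the log2 fold change of -1.08 had an interval of -3.14 to 0.97 (adjusted p = 0.464). Cldn19, found in pigment epithelium and in Schwann cells, had 6.84, 7.99 and 7.10 TPM against 8.81, 8.35 and 8.25 TPM, below the vehicle range by a small margin (log2 fold change -0.15, adjusted p = 0.394). The lens connexin Gja3 peaked at 1.32 TPM in vehicle replicate 3, the library with lens transcripts. In the other 5 libraries it ran from 0.41 to 0.77 TPM, and its log2 fold change was -0.51 with an interval that spans 0 (adjusted p = 0.563).

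The 17 members that were not tested were all below 1 TPM on average. Of these, 7 had no count in any library (Cldn20, Cldn34a, Cldn34b, Cldn34c4, Cldn34d, Cldn34e and Gjd3), and the other 10 reached at most 30 counts in a library. Gjc3 was at 0.24 to 0.41 TPM with spironolactone and 0.69 to 0.95 TPM with vehicle, Gja10 at 0.11 to 0.40 against 0.38 to 0.51, and Gjb1, the connexin of Schwann cells and liver, at 0.26 to 0.60 against 0.20 to 0.47. The groups of Gjc3 did not overlap, at 3, 4 and 2 counts with spironolactone and 7, 6 and 9 with vehicle. Differences in these 3 genes were not tested in the main fit. Cldn16 and Cldn17 passed the filter at under 1 TPM, with log2 fold changes of -1.04 (adjusted p = 0.33) and 0.87 (adjusted p = 0.439) and intervals that span 0. Cldn16 had 0.40, 0.63 and 0.06 TPM against 0.65, 0.92 and 0.81 TPM, its lowest value again in spironolactone replicate 3.

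Proteins that work with the members were read from a list of 33 genes, of which 32 were tested. Of these, 19 had positive and 13 negative log2 fold changes, with a median of 0.12. No gene passed the adjusted threshold in edgeR. At an unadjusted p under 0.05, 12 were higher and 5 lower, where 12.2% and 10.4% of all genes were, and DESeq2 called 11 higher and 1 lower, with 5.77% and 3.34% of all genes called.

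The higher partners included surface proteins and polarity proteins of epithelia. Epcam, which binds Cldn7 and keeps it at the membrane, had 177, 174 and 166 TPM with spironolactone and 113.8, 129.5 and 134 TPM with vehicle, without overlap, and a log2 difference of 0.51 (adjusted p = 0.0649). It is also on the list of epithelial markers. Lsr (log2 fold change 0.43) and Ildr1 (0.53), angulins that recruit tricellulin, were higher without overlap. The angulin Ildr2 had a negative value, with overlap (-0.45, adjusted p = 0.299). Crb3 (0.52), Patj (0.35), Pard3 (0.35), Prkcz (0.31) and Prkci (0.24), which belong to the apical polarity complexes, were higher without overlap too. For Mpp5 (0.18), Pard6b (0.04) and Pard6a (-0.12) of the same complexes, the groups overlapped and the intervals span 0. Also higher were Afdn (0.34), which ties nectins to actin, Arhgef18 (0.34), an activator of RhoA at the junction, and Ybx3 (0.30), a transcription factor held at tight junctions by zonula occludens scaffolds. For the higher partners named here with an unadjusted p under 0.05, adjusted p-values ran from 0.0649 (Epcam, Lsr and Arhgef18) to 0.149 (Prkcz).

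Lower values at an unadjusted p under 0.05 were found for Jam2 (log2 fold change -0.27) and Jam3 (-0.27), adhesion molecules of the F11r family that endothelium expresses. They were also found for Mpdz (-0.30), a scaffold paralogous to Patj, Panx2 (-0.30), a pannexin channel, and Arhgef2 (-0.26), a RhoA activator bound to microtubules and to cingulin. Adjusted p-values of these 5 ran from 0.104 (Jam3) to 0.206 (Arhgef2). F11r and Jam2, relatives in sequence, thus had values on opposite sides of 0, 0.45 and -0.27; the difference between them was not tested.

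**Figure D5:**
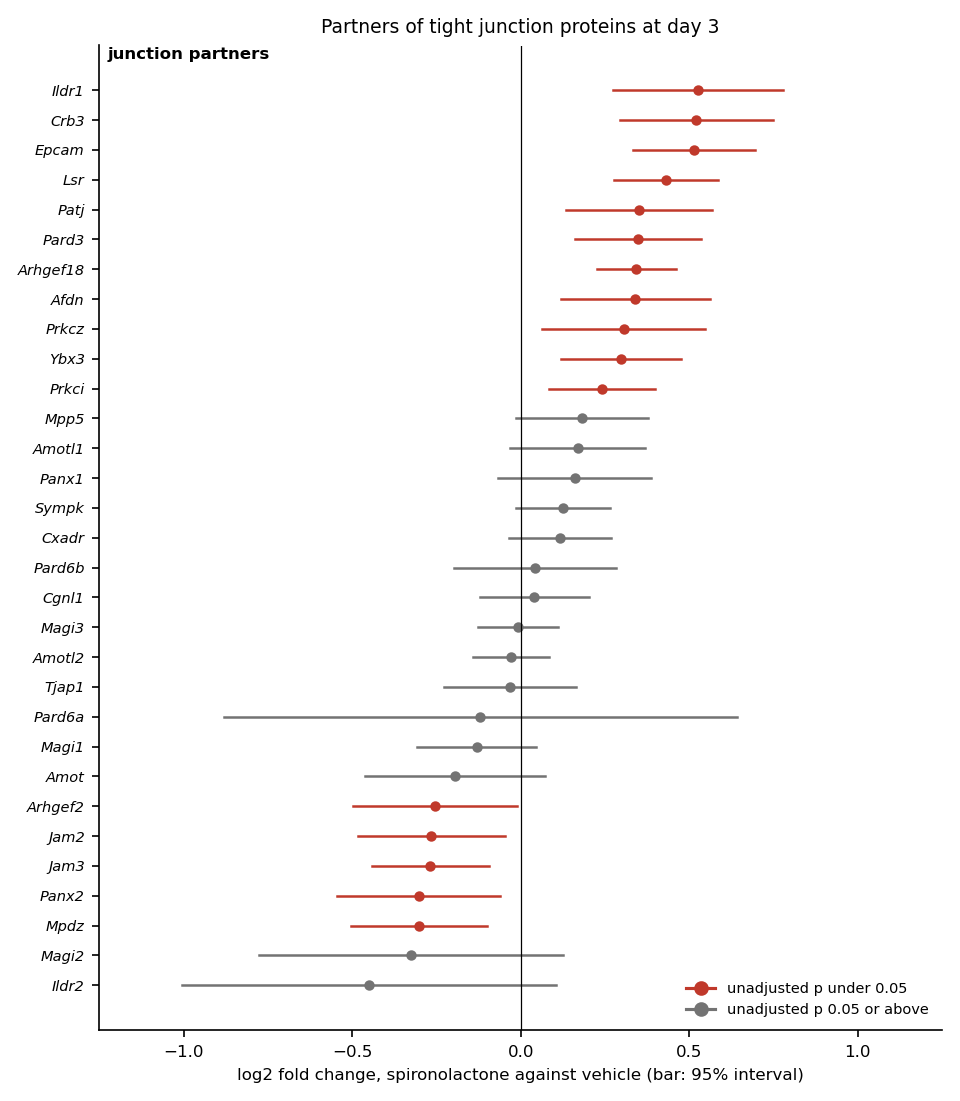
Log2 fold change (spironolactone against vehicle, horizontal axis) of 31 tested partners of junction proteins at day 3, with 95% intervals as bars and an unadjusted p under 0.05 in red. The 11 red genes to the right of 0 run from Prkci (0.24) to Ildr1 (0.53), and the 5 red genes to the left include Jam2 and Jam3.

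Vehicle replicate 3 had more of the pattern of the spironolactone libraries than the other vehicle libraries did. It was the highest vehicle library in 9 of the 12 epithelial claudins and connexins. The same held in 11 of the 13 higher members with an unadjusted p under 0.05, and it was the lowest in all 3 lower ones. The share of all genes in which it was the highest or lowest vehicle library was not counted. The epithelial marker sum of vehicle replicate 3, 11856 TPM, was also the highest of the vehicle group, and its endothelial sum, 310.2 TPM, the lowest. Without it, edgeR called 13 members, where 5.27% of all genes were called. These were 10 higher, among them Cgn, Cldn1, Cldn4, Cldn7, Cldn11, F11r, Gjb2, Marveld3 and Tjp3, and 3 lower (Cldn2, Cldn10 and Gja5). Without the replicates 3 of both groups it called 17, now with Cldn8, Cldn23 and Ocln among them, where 7.02% of all genes were called. Leaving out any other single library gave 0 called members. Vehicle replicate 3 stands out by the same values that are tested. Adjusted p-values without it, or without both replicates 3, therefore describe its weight and add no support.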

How the data were processed

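RNA-seq of 6 day 3 libraries was analysed. STAR 2.5.3a and RSEM 1.2.28, with builds rn6 and Rnor_6.0, are among the tools listed without roles, per the submitters' processing notes. Per the file headers, the day 3 tables hold the authors' expected counts in RSEM's layout and the authors' TPM; strand use is not stated, so overlapping genes and close paralogs may share reads. Here the deposited expected counts were rounded, 1 row naming no gene (0.12% to 0.181% of counts) was left out, and edgeR 4.0.16 (R 4.3.3) gave robust quasi-likelihood tests after TMM scaling and its expression filter (minimum count 10), with Benjamini-Hochberg adjustment over all genes tested at 0.05. The standard error is the log2 fold change over the square root of F, and intervals cover 95%. Levels and ratios between genes use the deposited TPM values. No replicate pair agreed within sampling noise (chi-square per gene 7.62 to 22.8). Code was tested on simulated data. Alternatives used DESeq2 1.42.0, which gave no adjusted p for 3 members, and limma 3.58.1. Every member at 1 TPM or more on average, or on a role list, is named with its values, as are partners with an unadjusted p under 0.05; some of these genes are not reported here, though counts include them. The members and lists were chosen with earlier results of these data known. The 7 libraries of day 7 list identifiers that no table used here pairs with symbols and were not analysed.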

Additional observations from a re-analysis of the deposited data

How the results depend on the processing

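The count of members past the adjusted threshold was 0 in edgeR and stayed 0 with limma-voom, limma-trend on TPM, RLE or upper quartile factors, effective-length offsets, a filter of 1 CPM in 3 libraries and the replicate block. It was 13 with DESeq2, 3 with no filter (Cldn2, Cldn4 and Tjp3), 17 without both replicates 3, and 0 to 13 with 1 library left out. For all genes these counts were 0, 1344, 148, 1040 and 0 to 781 (781 without vehicle replicate 3, 40 without vehicle replicate 1, 2 without spironolactone replicate 3). With the replicate number as a block, 0 members and 0 genes passed and 13 members had an unadjusted p under 0.05 against 16; same-numbered libraries correlated at 0.108, -0.0893 and 0.0597, so the numbers were not taken as pairs. Counts of genes without overlap can only stay or rise when a library is left out. Members without overlap numbered 16 of 36 (32% of all genes) and 16 to 29 with 1 library left out, where 37.7% to 48% of all genes were without overlap; 29 and 48% were both without vehicle replicate 3. Ratios to Cldn5 without overlap numbered 1, then 2 from counts, 8 without both replicates 3 and 1 to 8 with 1 library left out (8 without vehicle replicate 3, 5 without spironolactone replicate 1). Ratios to markers without overlap numbered 7, then 7 to 10 with 1 library left out, 3 with the geometric mean and 4 with Cdh1 or Cdh5 alone; the last and the sum without keratins were added after the data were seen. The values whose sign turned follow, with ranges over the fits with 1 library left out. Tjp1 was -0.00791 and -0.00801 on log2(TPM + 1) and log2(TPM + 0.1), with a range of -0.0169 to 0.118. Cldn5 ran from -0.0393 to 0.226, and Gja3 from -0.889 to 0.0701, with 0.226 without both replicates 3. Ratios to Cldn5 ran from -0.239 to 0.0127 for Gja1 and from -0.0188 to 0.24 for Cldn3. Relative to the marker sum, Cldn23 ran from -0.424 to 0.0298, Gjb2 from -0.187 to 0.0226 and Gja4 from -0.0463 to 0.211. Without both replicates 3, Cldn23 was 0.114. With the geometric mean, Cldn23 and Gjb2 were 0.0356 and 0.123, with Cdh1 they were 0.0525 and 0.14, and without keratins Gjb2 was 0.00979. The cause of these shifts was not tested. With 3 libraries a group, exact tests over libraries cannot go below 0.1, and members under 1 TPM rest on few counts.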
